A study of Rattus norvegicus with 170 samples.

Results

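The genes described here are 46 genes of DNA replication and of S phase, the part of the cell cycle in which the genome is copied. They were taken by symbol from a list of replication factors, and 46 of 46 were found among the 24117 genes in the table. The cells came from the pancreas of wild type Sprague Dawley rats, males of 8 weeks. Their islets were picked by hand and kept whole for 48 h in RPMI1640 with 10% FBS and 5.5 mM glucose. The medium held either 0.1% DMSO, the vehicle, or 3 µM GNF4877, which the study uses to inhibit the kinases DYRK1A and GSK3B. The islets were then dispersed, and single cells were caught and their cDNA made on Fluidigm C1 chips, which gave 86 DMSO cells and 84 GNF4877 cells. A value is given in RPM, the reads of a gene scaled to 1000000 mapped reads of its cell. It is not divided by the length of the transcript, so levels of the 46 genes are not compared with each other. A marker said to be most abundant or to lead its list had the highest RPM there, which need not mean the most transcripts. Cells held 241604 to 2499138 mapped reads.

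Before S phase, origins of replication are licensed by loading the Mcm helicase onto DNA. In S phase the helicase is switched on, polymerases copy both strands around the Pcna clamp, and the supply of nucleotides and histones is raised. Transcription of many of these genes is driven by E2F factors, which the retinoblastoma family holds back in resting cells, and adult β-cells rarely enter the cycle.

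Described here are cells with 1000 RPM or more of *Ins1*, an insulin gene, called Ins1-high. There were 78 in DMSO and 59 in GNF4877. Each treatment is a single sample with no animal, culture or second chip named, so no test was made. Effects of the chip, of the sequencing lane (1 plate per lane) and of the compound cannot be told apart. Intervals given for shares of cells are exact Clopper-Pearson intervals at 95% and cover counting error only. DMSO cells 48 and 73 and GNF4877 cell 2 stand apart, with 59528, 61898 and 9840 reads on the listed transcripts, under 100000. They read 5, 7 and 6 of the 46 genes and are kept in the values given here, with values without them given where they bear on a count. The study kept ports where a single cell had been seen under the microscope, and no further removal of doublets was made here. A second hormone (*Gcg*, *Sst* or *Ppy*) reached 1000 RPM in 25 of 78 Ins1-high DMSO cells and 4 of 59 GNF4877 cells.

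For each cell, log2(RPM + 1) was averaged over the 46 genes. In the 78 DMSO cells this mean had a lowest value of 0.32, a median of 1.54 and a highest value of 5.51. In the 59 GNF4877 cells these were 0.33, 1.31 and 5.82. The upper quartile was 1.79 in DMSO and 2.80 in GNF4877. The typical GNF4877 cell was thus no higher than the typical DMSO cell, while a group of GNF4877 cells lay far above most DMSO cells. The order of the medians turned when the mean was taken over 18 of the members (0.91 in DMSO and 0.93 in GNF4877). These were listed by hand as limited to cycling cells, and the values do not bear that out for all of them. *Gins2* and *Cdc6* are among the 18 and were each read in 78 of 78 DMSO cells and 58 of 59 GNF4877 cells. A median of 17 of the 46 genes was read per DMSO cell and 16 per GNF4877 cell, and at most 42 and 41.

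A cell was counted as high where its mean was above 2.61, the median of the Ins1-high DMSO cells plus 3 times their scaled median absolute deviation (MAD). This is a range of a score and not a cell type. In DMSO, 2 of 78 cells were high (2.56%, 0.312% to 8.96%), and in GNF4877 16 of 59 (27.1%, 16.4% to 40.3%). Without cells under 100000 listed reads the counts were 2 of 76 and 16 of 58. Of the 16 high GNF4877 cells, 7 had no read of *Ccnb1*, the cyclin of entry into mitosis, which is 11.9% of the 59 cells (4.91% to 22.9%). The other 9 held 12 *Ccnb1* reads or more. The GNF4877 cell just inside the threshold was cell 11 at 2.70 and the one just outside was cell 37 at 2.43. In DMSO these were cell 21 at 5.37 and cell 7 at 2.20. Within 0.5 of the threshold lay 4 DMSO cells and 6 GNF4877 cells. With 5 times the MAD, 12 of 59 GNF4877 cells were high and 3 of 59 were high with *Ccnb1* of 0 (5.08%, 1.06% to 14.1%), so the group without *Ccnb1* holds many of the cells nearest the threshold.

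**Figure D1:**
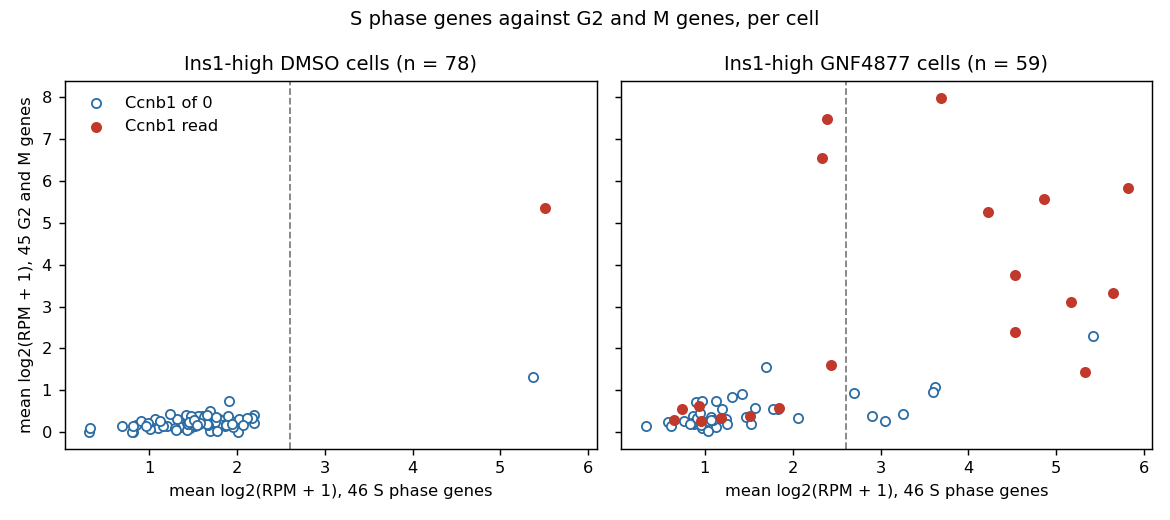
Mean log2(RPM + 1) of the 46 S phase genes (horizontal) against that of 45 G2 and M phase genes (vertical), 1 point per Ins1-high cell, filled where *Ccnb1* was read; the dashed line is the threshold of 2.61. In GNF4877, 16 of 59 cells lie to its right, 7 of them without *Ccnb1*, and in DMSO 2 of 78.

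The 2 high DMSO cells were unlike each other. Cell 21 read 38 of the 46 genes and had *Ccnb1* of 0, *Ins1* of 1784 RPM and *Gcg*, the glucagon gene, of 184144 RPM. Cell 46 read 42 of the 46 genes, with *Ccnb1* of 49.4 RPM, *Ins1* of 11547 RPM and a sum of 15457 RPM over 9 mesenchymal markers, led by *Col1a1*. So both carried markers of another cell type beside insulin. The highest DMSO value lay in cell 21 for 20 of the 46 genes and in cell 46 for 8. The 2 cells held a median of 21.3% of the summed DMSO RPM of a gene, and over 50% for 12 of the 46.

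Ratios between treatments were taken as log2((mean RPM + 1)/(mean RPM + 1)) over the 59 GNF4877 and 78 DMSO cells, so that 1 stands for 2-fold. Of the 46 genes, 36 were 2-fold or more higher in GNF4877, beside 8.00% of the 17858 genes read in either group. None of the 46 was 2-fold or more lower (0 of 46), beside 14.5% of all genes. The median log2 ratio was 1.50 over the 46 genes and -0.08 over all genes. At 8-fold or more were 7 genes, namely *Rrm2*, *Mcm10*, *Dtl*, *Mcm3*, *Mcm5*, *Orc1* and *Pole*. The share of all genes at 8-fold was not taken, so this serves only to name the genes with the highest ratios. *Gins2* alone had a mean that was lower in GNF4877. Without cells under 100000 listed reads, 36 genes were again at 2-fold or more, with a median of 1.49.

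Much of each mean lay in the high cells, which is partly built in, as they were chosen by these genes. The 16 high cells held a median of 79.97% of the summed RPM of a gene in GNF4877, and for 40 of the 46 genes the highest GNF4877 value was in 1 of them. For 31 genes the median cell was at 0 in both treatments, and the lowest value was 0 in both for all but *Gins2*, *Cdc6* and *Rfc5*. Where log2(RPM + 1) was averaged over cells and the averages subtracted, which gives high cells less weight, 8 genes were at 2-fold or more higher, beside 1.35% of all genes, and 0 lower, beside 18.5%. The median was then 0.29, while that of all genes was -0.24. On that scale 40 of the 46 genes were above 0. With the highest GNF4877 cell of each gene left out, 22 of the 46 were at 2-fold or more. The share of all genes under that setting was not taken, so this count is a description only. In the cells that were not high, 43 in GNF4877 and 76 in DMSO, the mean was higher in GNF4877 for 27 of the genes and lower for 19. Over all 17656 genes of that comparison it was higher for 7118 and lower for 10538. The median log2 ratio was 0.21 for the 46 genes against -0.10 for all genes. Since these cells were set apart by the same genes, that is a description only.

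The share of cells with any read of a gene was higher in GNF4877 for 25 of the 46 genes and lower for 21. For 5 genes, *Mcm3*, *Mcm5*, *Mcm6*, *Gmnn* and *Rrm2*, the share was higher with intervals that did not overlap, beside 0.644% of all genes. For 0 genes it was lower in that way, beside 16.7%. With each cell thinned to 100000 reads, 4 genes (*Mcm3*, *Mcm5*, *Gmnn* and *Rrm2*) were higher with intervals apart, beside 0.530%, and 0 lower, beside 15.4%. With a minimum of 10 RPM the same 4 were higher, beside 0.900%, and 0 lower, beside 14.4%. At 10 RPM or more the share was higher in GNF4877 for 31 of the 46 genes. Intervals were thus apart for few of the 46. The highest value was greater in GNF4877 than in DMSO for 44 of them, all but *Gins3* and *Cdc45*. For the counts of 25, 31 and 44 genes no share of all genes was taken, so they are descriptions only.

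**Figure D2:**
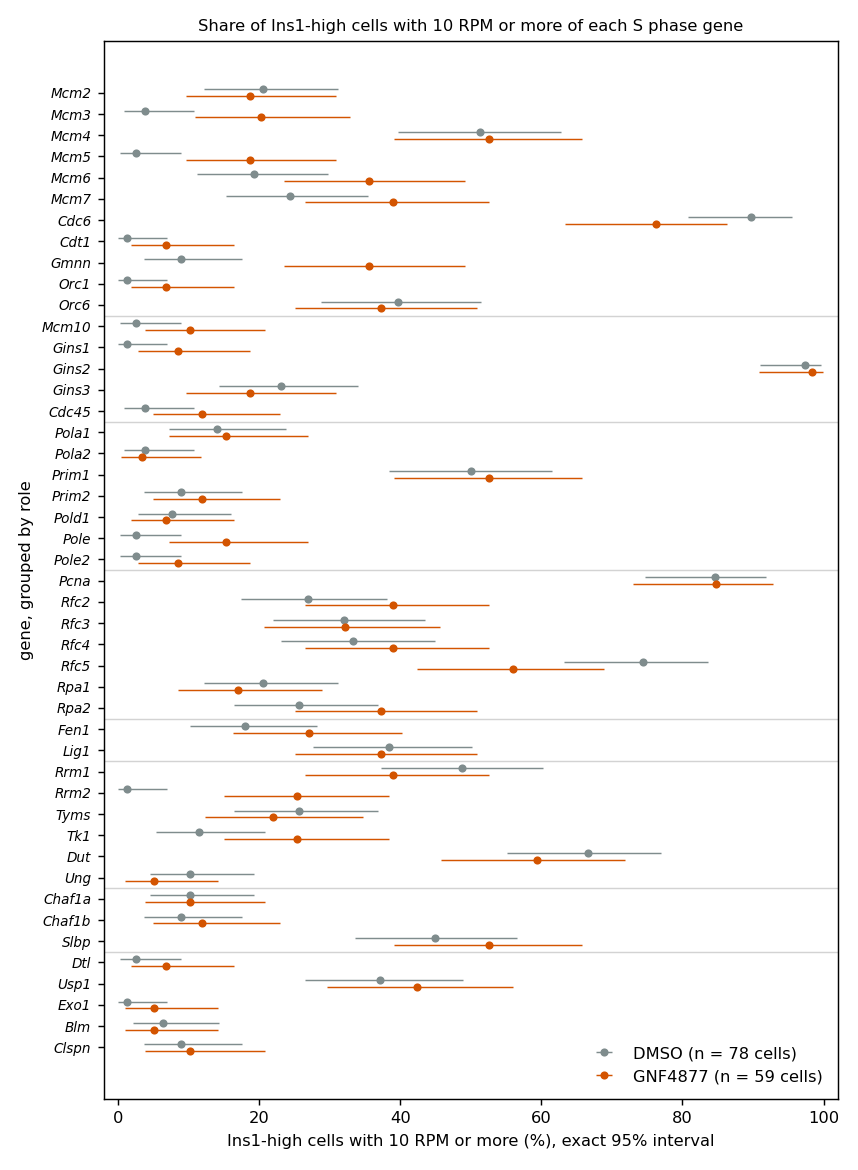
Share of Ins1-high cells with 10 RPM or more of each of the 46 genes (percent), for 78 DMSO cells in grey and 59 GNF4877 cells in orange, with exact 95% intervals. The intervals lie apart for *Mcm3*, *Mcm5*, *Gmnn* and *Rrm2*, higher in GNF4877.

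Origin licensing covers 11 of the genes. The subunits *Mcm2* to *Mcm7* form the ring of the helicase, *Orc1*, *Orc6*, *Cdc6* and *Cdt1* load it, and geminin (*Gmnn*) holds *Cdt1* back once S phase has begun. *Mcm3* was read in 4 of 78 DMSO cells (5.13%, 1.41% to 12.6%) and 20 of 59 GNF4877 cells (33.9%, 22.1% to 47.4%). Its highest value was 217 RPM in DMSO and 982 RPM in GNF4877, and its mean 4.80 and 65.8 RPM, a log2 ratio of 3.53. *Mcm5* was read in 5 DMSO cells (6.41%, 2.11% to 14.3%) and 24 GNF4877 cells (40.7%, 28.1% to 54.3%), at up to 302 and 895 RPM, with means of 4.60 and 59.7 RPM and a log2 ratio of 3.44. For both genes nearly all of the GNF4877 signal was in the 16 high cells (99.9% and 98.4%), and the DMSO signal sat in few cells: without cell 46 the ratio of *Mcm3* was 4.45, and without cell 21 that of *Mcm5* was 5.13. *Mcm6* was read in 25 DMSO cells (32.1%, 21.9% to 43.6%) and 39 GNF4877 cells (66.1%, 52.6% to 77.9%), with medians of 0 and 0.847 RPM and highest values of 532 and 1371 RPM. Its mean was 21.7 and 149 RPM, a log2 ratio of 2.72, and each of the 16 high GNF4877 cells held 10 RPM or more. *Mcm4* was as widespread in either treatment (56 of 78 and 42 of 59 cells), with medians of 11.2 and 12.6 RPM, highest values of 365 and 1042 RPM and means of 56.1 and 127 RPM (1.17). *Mcm7* had means of 35.4 and 96 RPM (1.41), with up to 544 RPM in DMSO and 828 RPM in GNF4877. *Mcm2* fell just short of 2-fold (17.2 and 35.1 RPM, 0.99) and so near it that it was past it without any 1 of 60 cells, 48 of them in GNF4877, at 1.01 to 1.24, the latter without DMSO cell 21. Within the ring, then, *Mcm3* and *Mcm5* differed in how many cells had them. For *Mcm6* the intervals overlapped once cells were thinned (23.7%, 14.7% to 34.8%, and 37.9%, 25.5% to 51.6%) and at 10 RPM or more (19.2%, 11.2% to 29.7%, and 35.6%, 23.6% to 49.1%).

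Among the loaders, *Cdc6* was read in 78 of 78 DMSO cells and 58 of 59 GNF4877 cells. Its lowest, median and highest values were 2.77, 22.5 and 68.2 RPM in DMSO and 0, 16.7 and 476 RPM in GNF4877. Most cells overlapped, and the higher GNF4877 mean (54.7 against 24.3 RPM, 1.14) came from a few cells. *Cdt1* was read in DMSO cell 21 alone, at 55.8 RPM, and in 7 GNF4877 cells, at up to 249 RPM in cell 11, with means of 0.715 and 5.99 RPM (2.03). Without cell 11 its ratio was 0.71. Without cell 21 it was 2.81. *Gmnn* was read in 11 DMSO cells (14.1%, 7.26% to 23.8%) and 24 GNF4877 cells (40.7%, 28.1% to 54.3%), at up to 85.9 and 189.7 RPM, with means of 4.39 and 25.8 RPM (2.31). *Orc1*, the largest subunit of the origin recognition complex, was read in fewer GNF4877 cells (4) than DMSO cells (6). It reached 356 RPM there against 14.4 RPM, and its means were 12.6 and 0.309 RPM (3.38, or 2.56 without cell 96 and 2.67 without cell 63). All 4 GNF4877 cells with *Orc1* were high cells. *Orc6*, another subunit, had medians of 0.907 and 0.685 RPM, highest values of 174 and 533 RPM and means of 25.2 and 54 RPM (1.07). Some of these calls hung on 1 GNF4877 cell. The ratio of *Mcm4* was 0.98 without cell 25 and just under 1 without cell 19. That of *Cdc6* was 0.94 without cell 96 and 0.96 without cell 19 or cell 26. That of *Orc6* was 0.84 without cell 95, 0.92 without cell 32, 0.93 without cell 19, 0.98 without cell 80 and 0.99 without cell 50 or cell 6.

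*Mcm10*, *Cdc45* and the GINS subunits *Gins1* to *Gins3* turn the loaded ring into a moving helicase. *Mcm10* was read in 3 DMSO cells, at up to 47.8 RPM, and 10 GNF4877 cells, at up to 759 RPM, with means of 0.873 and 25.4 RPM (3.81). Its highest value lay in cell 38, which was not a high cell, and the ratio without that cell was 2.87. *Gins1* was read in 2 and 9 cells, at up to 17.6 and 165 RPM, with means of 0.332 and 7.43 RPM (2.66). *Cdc45* reached about the same height in both treatments (207 RPM in DMSO cell 21 and 198 RPM in GNF4877 cell 96) but was read in 18 of 59 cells against 10 of 78. Its means were 3.28 and 11.8 RPM (1.58, or 2.97 without cell 21). The other GINS subunits did not share this pattern. *Gins3* had means of 13.4 and 14.4 RPM (0.09), so near to equal that single cells set the direction. The ratio was 0.82 without DMSO cell 51 and turned to -0.42 without GNF4877 cell 17, to -0.10 without cell 18 and to just under 0 without cell 16, 25 or 36. Where log2(RPM + 1) was averaged over cells it was -0.31. *Gins2* was read in 78 of 78 and 58 of 59 cells. Its lowest, median and highest values were 7.52, 169 and 410.1 RPM in DMSO and 0, 95.4 and 503 RPM in GNF4877, with a mean of 175 and 129 RPM (-0.44). It was also read in each of the 23 cells with 1000 RPM or more of *Gcg* that were not Ins1-high. Having a read of *Gins2* thus did not mark the high cells. Its level was higher in them on average. In GNF4877 its mean was 174 RPM in high cells without *Ccnb1* and 245 RPM in those with it. In the Ins1-high GNF4877 cells that were not high it was 97.2 RPM. The ranges overlapped, from 76.2 RPM in the high cells and up to 332 RPM in the others. The high cells were chosen by these genes, *Gins2* among them. *Gins2* overlaps *Gse1* in the GRCr8 gene table, by whole gene spans with introns and on either strand. Reads on bases shared by 2 transcripts cannot be told apart without strand. Whether such transcripts share bases was not looked at, here or for the other overlaps.

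Polymerase α with primase starts each new strand, and polymerases δ and ε extend it. *Pole*, the catalytic subunit of ε, was read in 5 of 78 DMSO cells and 14 of 59 GNF4877 cells, at up to 213 and 803 RPM. Its means were 3.25 and 33.2 RPM, a log2 ratio of 3.01, which was 2.30 without GNF4877 cell 19 and 4.49 without DMSO cell 21. The others were nearer to 2-fold and hung on single cells. *Pola1*, the catalytic subunit of α, had means of 6.83 and 21.2 RPM (1.50), with up to 110.5 and 505 RPM, and 0.82 without cell 60, which was not a high cell. *Pola2*, its second subunit, was read in 7 and 5 cells, with means of 1.70 and 6.18 RPM and highest values of 87.7 and 277 RPM. Its ratio of 1.41 turned to -0.11 without GNF4877 cell 17 and was 2.18 without DMSO cell 4. *Prim1*, the catalytic primase subunit, was read in 76 and 56 cells with medians of 10.1 and 10.9 RPM, highest values of 166 and 440.0 RPM and means of 30.7 and 63.1 RPM (1.02, or 0.86 without cell 17). It was so near 2-fold that leaving out any 1 of 23 cells, 10 of them in DMSO, put it under. *Prim2*, the large primase subunit, had means of 7.04 and 16.8 RPM (1.15), with up to 165 and 324 RPM, and 0.64 without cell 6, 0.74 without cell 10, 0.96 without cell 31 and just under 1 without cell 26. *Pold1*, the catalytic subunit of δ, was under 2-fold (0.87), at -0.53 without GNF4877 cell 31 and 1.81 without DMSO cell 6 or 1.14 without DMSO cell 21. *Pole2* was under 2-fold too (0.92), at 1.47 without DMSO cell 41 and 1.25 without DMSO cell 46.

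Pcna is the sliding clamp that holds polymerases on DNA, the Rfc subunits load it, and Rpa coats single-stranded DNA. *Pcna* was read in 72 of 78 DMSO cells and 54 of 59 GNF4877 cells. Its lowest, median and highest values were 0, 92 and 616 RPM in DMSO and 0, 129 and 1557 RPM in GNF4877. Its mean was 121 and 262 RPM (1.11, or 0.98 without cell 19 or cell 25 and just under 1 without cell 95). Most cells of both treatments thus had *Pcna* at overlapping levels, and the GNF4877 cells above the highest DMSO cell were high cells. *Rfc2* had medians of 0 and 0.714 RPM, highest values of 221 and 1002 RPM and means of 20.5 and 91.4 RPM (2.10). *Rfc4* had medians of 0.876 and 1.15 RPM, highest values of 186 and 486 RPM and means of 18.2 and 65.4 RPM (1.79). *Rfc5* was lower in the median GNF4877 cell (11.7 against 15.2 RPM) and higher in the mean (67.3 against 20.1 RPM, 1.69). It reached 1009 RPM in cell 46, which was not a high cell, and 112 RPM in DMSO, and was read in 59 of 59 and 76 of 78 cells. *Rfc3* was under 2-fold (0.95) and past it without DMSO cell 21 (1.13), 64 (1.08), 17 or 77 (1.02), 4 (1.01), and 16 or 84 (just over 1). *Rpa1* had means of 10.9 and 38.4 RPM (1.73) with up to 117 and 597 RPM, and *Rpa2* 16.4 and 51.2 RPM (1.58) with up to 193 and 479 RPM. Okazaki fragments are trimmed by the nuclease *Fen1* and joined by the ligase *Lig1*. Both were highest in GNF4877 cell 11. *Fen1* reached 735 RPM there and 340.1 RPM in DMSO, with means of 40.8 and 13.4 RPM (1.54). *Lig1* reached 847 and 121 RPM, with medians of 0.921 and 3.17 RPM and means of 46.6 and 12.3 RPM (1.84). *Fen1* overlaps *Tmem258* and *Lig1* overlaps *Zswim9*, as 14 of the 46 genes overlap another gene of the table. Among the 14 are also *Mcm3*, *Mcm6*, *Gins1* and *Pole*.

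Nucleotide supply gave the highest ratio of all 46 genes. *Rrm2*, the subunit of ribonucleotide reductase made in S phase, was read in DMSO cell 46 alone, at 313 RPM (1.28%, 0.0325% to 6.94%), and in 23 of 59 GNF4877 cells (39%, 26.5% to 52.6%), at up to 779 RPM. Its means were 4.01 and 87.6 RPM, a log2 ratio of 4.14. Without cell 46 it was 6.47. *Rrm2* overlaps *Cys1*. *Rrm1*, the large subunit of the same enzyme, was read in more of the DMSO cells (55 of 78 against 34 of 59) and had medians of 7.21 and 0.882 RPM. Its highest values were 481 and 1194 RPM and its means 49.9 and 158 RPM (1.64). The enzyme's subunits thus differed: *Rrm1* was present in most cells of both treatments, and *Rrm2* in hardly any DMSO cell. *Tk1*, thymidine kinase, was read in 14 and 21 cells, at up to 198 and 427 RPM, with means of 6.93 and 39.1 RPM (2.34). *Tyms*, thymidylate synthase, was read in a lower share of GNF4877 cells (17 of 59 against 33 of 78). It had highest values of 190.4 and 330.4 RPM and means of 14.6 and 30.9 RPM (1.04, or 0.78 without cell 95). It was also under 1 without GNF4877 cell 68 (0.82), 17 (0.87), 45 (0.89), 26 or 64 (0.95), 31 (0.98), 40 or 90 (0.99), and 6 or 37 (just under 1). Where log2(RPM + 1) was averaged over cells it was -0.12. *Dut*, which clears dUTP, was under 2-fold (0.95, or 1.06 without DMSO cell 21), and *Ung*, which removes uracil from DNA, was at 0.53, or -0.54 without GNF4877 cell 87. By averages of log2(RPM + 1), *Dut* was at -0.12 and *Ung* at -0.25.

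*Chaf1a* and *Chaf1b* belong to the complex that places histones on new DNA, and *Slbp* binds histone mRNA. *Slbp* was widespread (59 of 78 and 43 of 59 cells), with medians of 9.50 and 16 RPM, highest values of 276 and 676 RPM and means of 24.5 and 70.9 RPM (1.50). *Chaf1b* had means of 5.95 and 17.3 RPM (1.40, or 0.99 without GNF4877 cell 25 and 2.35 without DMSO cell 21), with nearly equal highest values (265 and 279.6 RPM). *Chaf1a* had means of 7.72 and 18.3 RPM (1.15, or 0.38 without cell 63 and 0.63 without cell 96), with up to 137 and 479 RPM. The rest act in checkpoints, protein turnover and repair, and here single cells decided most values. *Dtl*, which marks *Cdt1* protein for breakdown, was read in 2 DMSO cells (the high cells 21 and 46), at up to 38.8 RPM, and 10 GNF4877 cells, at up to 713 RPM. Its means were 0.838 and 23.5 RPM (3.74, or 2.78 without cell 11 and 3.01 without cell 31). *Blm*, a helicase of recombination, had means of 1.74 and 7.24 RPM (1.59), with up to 47.9 and 280.4 RPM, and 0.37 without cell 80. *Clspn*, which relays replication stress to the checkpoint kinase Chk1, had means of 3.31 and 8.77 RPM (1.18) with up to 63.6 and 402 RPM. It turned to -0.52 without cell 95 and was -0.04 where log2(RPM + 1) was averaged over cells. *Exo1*, an exonuclease, was at 0.82, turned to -0.51 without GNF4877 cell 95 and was 2.98 without DMSO cell 21. *Usp1*, a ubiquitin protease that acts on *Pcna* protein, was at 0.77, with medians of 3.11 and 0.903 RPM.

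On the GNF4877 chip alone, the 19 Ins1-high cells with a *Ccnb1* read can be set beside the 40 without. Of the 46 genes, 35 were 2-fold or more higher in the 19 cells, beside 14.8% of 15925 genes, and 2 were 2-fold or more lower, beside 15.1%. The median log2 ratio was 1.74 (all genes -0.03). With each cell left out in turn, 33 to 36 genes were higher. *Rrm2* averaged 268 RPM with *Ccnb1* and 1.86 RPM without, a log2 ratio of 6.56. *Orc1* averaged 37.7 and 0.673 RPM (4.53, or 3.66 without cell 96, 3.79 without cell 63 and 5.28 without cell 26), *Mcm5* 160.4 and 11.9 RPM (3.65, or 4.27 without cell 11 and 4.34 without cell 80), and *Rrm1* 389.6 and 47.4 RPM (3.01). *Pola2* and *Pole2* had no read in any of the 40 cells. Set against 3 reads over all 40, their means in the 19 cells were 8.38 and 7.43 higher on the log2 scale (6.39 without cell 17 and 6.84 without cell 25). These values count reads as independent, while reads of both genes sat in few cells and include PCR copies. They are therefore not firm lower bounds. No RPM is added in them, so they are not to be set beside the other ratios. With 1 RPM added as for those, *Pola2* was at 4.34 (2.55 without cell 17) and *Pole2* at 3.46. Most of these genes were therefore higher where *Ccnb1* was read. The 2 lower genes were *Blm* (0.0485 against 10.7 RPM, -3.48) and *Cdt1* (1.58 against 8.09 RPM, -1.81), which were highest in cells 80 and 11, both high with *Ccnb1* of 0. The call for *Cdt1* rested on cell 11, without which the ratio was -0.18 and *Blm* was the 1 lower gene (without cell 63 that of *Cdt1* was -2.70). *Blm* was at -2.18 without cell 80. Without cell 19 *Ung* was lower too (-2.73), and without cell 31 *Prim2* (-1.63) and *Dtl* (-3.79), for 3 and 4 lower genes. *Mcm6* was less uneven, at 303 and 75.6 RPM (1.99). The reverse kind of cell, with *Ccnb1* read and not high, numbered 10 of 59, of which 7 held 1 or 2 *Ccnb1* reads and 3 held 3 or more (5.08%, 1.06% to 14.1% of the 59). The 3 were cells 30 (2.33), 16 (2.39) and 78 (0.74), and the first 2 had the G2 and M genes high all the same (means of 6.54 and 7.49).

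The 7 high GNF4877 cells without *Ccnb1* were cells 11, 10, 80, 6, 68, 50 and 26, in the order of their means, which ran from 2.70 to 5.41 with a median of 3.26. In the 9 high cells with *Ccnb1* the mean ran from 3.69 to 5.82 with a median of 4.86. The 7 cells read 19 to 41 of the 46 genes and the 9 cells 30 to 37. All 16 cells shared reads of 7 genes, *Mcm6*, *Cdc6*, *Gins2*, *Prim1*, *Pcna*, *Rfc5* and *Slbp*. *Mcm6* had lowest, median and highest values of 109, 301 and 491 RPM in the 7 cells and 17.1, 526 and 1371 RPM in the 9, so the groups overlapped. For *Mcm3* these were 0, 146 and 527 RPM and 8.10, 107 and 982 RPM, while the 33 GNF4877 cells that were neither high nor had *Ccnb1* held at most 0.940 RPM. *Orc6* was at 0, 197 and 241 RPM in the 7 cells and 0, 108 and 533 RPM in the 9. *Mcm5* was at 0, 7.07 and 203 RPM and 0, 273 and 895 RPM. The groups overlapped for each of these licensing genes, and the medians went either way.

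Between the 2 groups of high cells, the ranges of *Rrm2* lay apart. It was at 72.2, 435 and 779 RPM in the 9 cells with *Ccnb1*, and of the 7 cells without *Ccnb1* only cell 26 had it, at 31.8 RPM. *Rrm2* was picked after its values were seen. The share of all genes with ranges apart between these 7 and 9 cells was not taken, so this is a description only. *Rrm1* was at 0, 36.8 and 391 RPM in the 7 cells and 146, 760.0 and 1194 RPM in the 9. *Tk1* was read in 2 of the 7 and in each of the 9 cells, and *Cdc45* in 1 of the 7, at 0.706 RPM, and 8 of the 9. *Pola2*, *Pole2* and *Exo1* had no read in any of the 7 cells, which allows a share of cells with a read of up to 41%. By role, the mean over the 6 genes of nucleotide supply had lowest, median and highest values of 0.65, 2.36 and 6.28 in the 7 cells and 4.51, 6.32 and 6.99 in the 9. For the 11 licensing genes these were 2.81, 4.86 and 6.16, and 3.37, 5.93 and 7.26. The medians of the other roles were 1.56 and 3.96 in the 7 and 9 cells for helicase activation, 2.87 and 3.39 for polymerases and primase, 4.29 and 6.58 for the clamp, its loader and Rpa, 3.33 and 5.66 for chromatin and 1.90 and 2.30 for checkpoint and repair. Only the 2 Okazaki fragment genes had a higher median without *Ccnb1* (6.05 and 5.02), and nucleotide supply had the widest gap. Against the 33 cells that were neither high nor had *Ccnb1*, 36 of the 44 genes read were 2-fold or more higher in the 7 cells, beside 14.9% of all genes, and 1 was lower (*Cdc45*), beside 23.1%. These cells were chosen by the same genes, so nothing is read from those counts.

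The 7 cells also differed among themselves. Cell 26 read 41 of the 46 genes and had *Ccna2*, the S phase cyclin, at 82.9 RPM and *E2f1* at 105 RPM. Cell 11, the nearest to the threshold, read 19 of the 46 genes and 4569 genes in all, the fewest of the 16 high cells, yet held the highest GNF4877 value of *Gins2*, *Cdt1*, *Rfc2*, *Fen1*, *Lig1* and *Dtl*. It had no read of *Mcm2*, *Mcm3*, *Mcm4*, *Gmnn* or *Tk1*. Cell 11 was thus high through a few genes and cell 26 through nearly all. Cells 80 and 68 held *Mcm3* at 527 and 399 RPM, cell 68 *Pole* at 435 RPM, cells 10 and 6 *Prim2* at 269 and 324 RPM, and cell 50 *Pcna* at 639 RPM. Genes of G2 and M, taken as a mean over 45 genes, had a median of 0.94 in the 7 cells, 3.75 in the 9 cells with *Ccnb1* and 0.32 in the 33 cells, against 0.21 in the 76 DMSO cells that were not high. *Mki67*, a marker of cycling cells, was read in 3 of the 7, at 119.6 RPM in cell 11 and under 1 RPM in cells 6 and 26, while *Cdk1*, the partner of *Ccnb1*, was read in 4, at up to 63.5 RPM in cell 26.

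**Figure D3:**
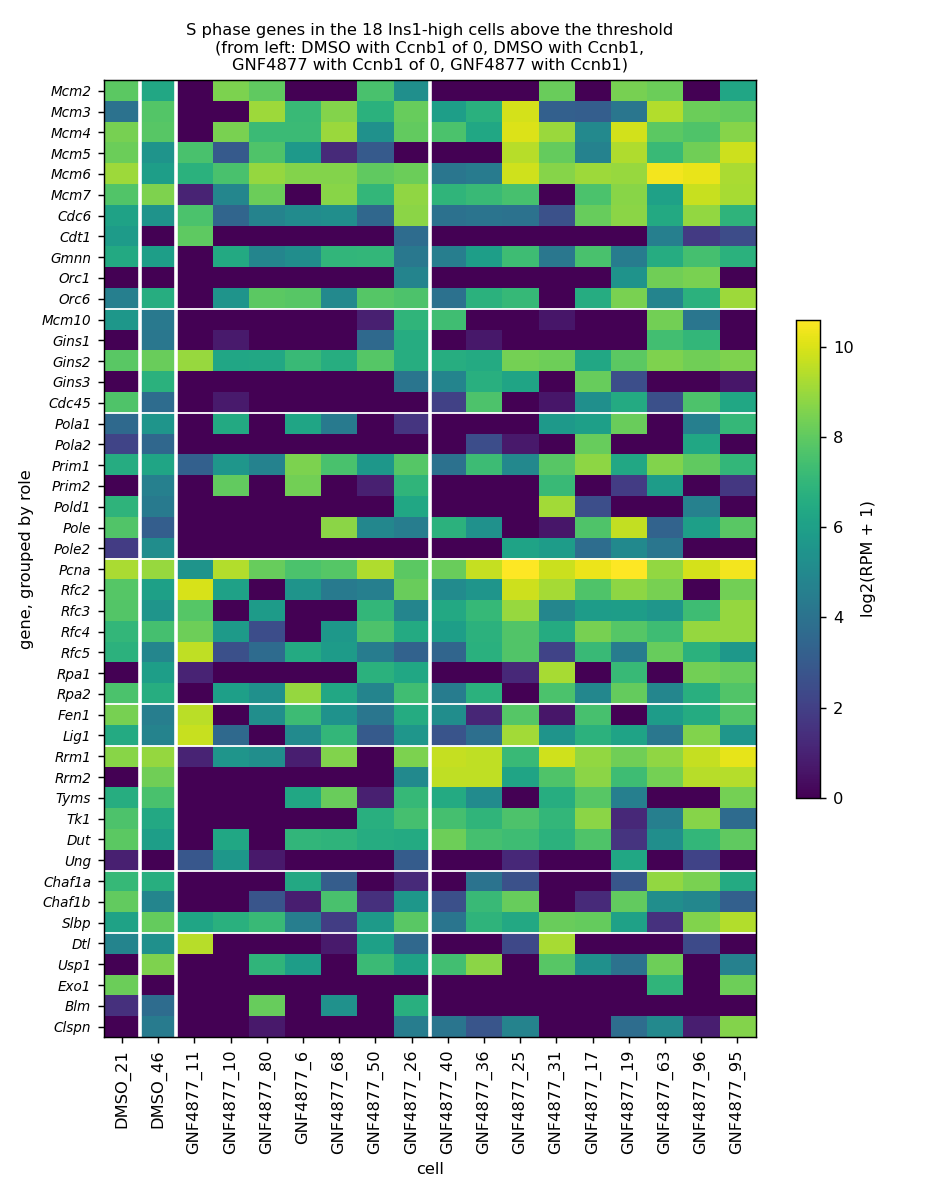
Colour map of log2(RPM + 1) for the 46 genes (vertical, grouped by role) in the 18 Ins1-high cells above the threshold (horizontal), with white lines between the groups of cells and of roles. *Mcm6* is read in every GNF4877 column shown, and *Rrm2* in each of the 9 with *Ccnb1* but in 1 of the 7 without.

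In other genes of the pathway the pattern was alike but smaller. Of 36 other replication genes found (*Mcmbp* and *Msh6* were not in the table), 18 were 2-fold or more higher in GNF4877 than in DMSO Ins1-high cells, 0 were lower and 18 lay between, with a median log2 ratio of 0.99. *Uhrf1*, which keeps DNA methylation on new strands, averaged 0.414 RPM in DMSO and 18.2 RPM in GNF4877 (3.77, or 2.99 without cell 31 and 3.02 without cell 25). The histone chaperone *Asf1b* averaged 4.29 and 40.9 RPM (2.99, or 3.84 without DMSO cell 21 and 3.62 without DMSO cell 46), and the chromatin remodeller *Hells* 1.86 and 23.4 RPM (3.10). Of 45 genes of G2 and M, 44 were 2-fold or more higher and 0 lower, with a median of 3.52, and *Hjurp* was the one between. Regulators of G1 and S were mixed. Of 20 found (*E2f2* was not), 5 were higher, 5 lower and 10 between, with a median near 0. The kinase *Cdk2* was higher (25.5 RPM in DMSO and 125 RPM in GNF4877, 2.25) and was read in 57 of 59 and 43 of 78 cells. The other 4 higher genes hung on single GNF4877 cells: *Ccna2* was at 1.34 (0.41 without cell 17, 2.85 without DMSO cell 46), *E2f1* at 1.28 (0.65 without cell 17, 0.92 without cell 26, 0.96 without cell 31, 2.93 without DMSO cell 46), *E2f8* at 1.36 (-0.32 without cell 31) and *Rbl1* at 1.27 (0.81 without cell 19, 0.98 without cell 32, 0.99 without cell 80). The 5 genes lower in GNF4877 were *Cdkn1a*, *Cdkn1b*, *Rb1*, *Rbl2* and *Ccnd2*. The inhibitor *Cdkn1a* averaged 5.82 RPM in DMSO and 0.567 RPM in GNF4877 (-2.12, or -1.53 without DMSO cell 95), and *Cdkn1b* 21.6 and 6.29 RPM (-1.64). The retinoblastoma gene *Rb1* averaged 55 and 17.6 RPM (-1.59) and its relative *Rbl2* 32.7 and 15.1 RPM (-1.07, or -0.99 without DMSO cell 22 and just short of -1 without DMSO cell 19). The G1 cyclin *Ccnd2* averaged 348 and 147 RPM (-1.24). Genes 2-fold or more lower were common in this comparison, at 14.5% of all genes, and 8.00% of all genes were 2-fold or more higher.

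Across the 59 Ins1-high GNF4877 cells, the 10 genes outside the 46 with the highest Pearson correlation to the mean of the 46, among 10784 genes read in 10 or more of the cells, were *Zfp367* (0.79), *Cdk1* (0.78), *LOC100359539* (0.77), *Ns5atp9* (0.77), *Ube2t* (0.76), *Apitd1* (0.76), *Tcf19* (0.76), *Pbk* (0.75), *Cenpt* (0.74) and *Kntc1* (0.74). *Cdk1* and *Pbk* are in the G2 and M list and *Tcf19* in that of other replication genes. *LOC100359539* averaged 162 RPM in GNF4877 and 7.38 RPM in DMSO. The 46 genes moved together only in part: the correlation of each with the mean of the other 45 had a median of 0.57 in GNF4877 cells (n = 59) and 0.39 in DMSO cells (n = 78), and was above 0.5 for 29 and 13 genes. The cells share a chip and differ in depth, so these are descriptions. The mean of the 46 had a correlation of 0.25 with mapped reads in GNF4877 and -0.02 in DMSO, and of 0.46 and 0.49 with the number of genes read. That number had a median of 7031 per Ins1-high GNF4877 cell and 8938.5 per DMSO cell, and 7654 in the 16 high cells. Its part in the lower median of the 46 genes in GNF4877 was not tested.

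Markers of other cell types differed by list in the 16 high GNF4877 cells. The sum over the 9 β-cell markers found (*G6pc2* was not in the table) holds *Ins1*, by which the cells were chosen, and had medians of 26034 RPM in the 7 cells without *Ccnb1* and 45708 RPM in the 9 with it. *Ins1* was the most abundant, and *Mafa* was at 0 in every Ins1-high GNF4877 cell. Of 6 α-cell markers *Ttr* and *Irx2* were at 0 in both groups of high cells, and the sum had medians of 196 and 174 RPM. Cell 31 was apart, with *Gcg* at 37011 RPM, as was cell 50, with *Ppy*, the marker of PP cells, at 41535 RPM. The 3 δ-cell markers summed to at most 244 and 141 RPM, with *Rbp4* the most abundant and *Hhex* at 0. The 9 mesenchymal markers summed to at most 1.67 and 3.42 RPM, led by *Pdgfra*, with *Col3a1*, *Dcn* and *Lum* at 0. The 8 acinar markers summed to at most 1.06 and 4.59 RPM, led by *Ctrb1* and *Cela1*, with *Prss1* and *Cpa1* at 0. Of the 8 endothelial markers only *Esam* was read, at 64.5 RPM in cell 50. The 6 duct markers, led by *Krt18*, had medians of 731 and 140.2 RPM, against 526 RPM in the 43 GNF4877 cells that were not high and 323 RPM in the 78 DMSO cells, and 8 of the 16 cells, 6 of them without *Ccnb1*, were above 526 RPM. The 8 immune markers, led by *Cd74*, summed to at most 382 and 617 RPM, with *Cd68*, *Csf1r* and *C1qa* at 0. The part of these in the values of the 46 genes was not tested. With second-hormone cells left out, 14 of 55 GNF4877 cells were high by the threshold of 2.61 (25.5%, 14.7% to 39%), 6 of them without *Ccnb1*. The threshold taken anew from the DMSO cells left was 2.88, and by it 13 of 55 were high, 5 of them without *Ccnb1*, as cell 11 was then under it.

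What the genes share beyond their function was looked for in their promoters, 250 bases before to 50 after the start of transcription, from RefSeq on the rat build GRCr8. Promoters were matched for 41 of the 46 genes, and *Mcm4*, *Cdc6*, *Orc1*, *Rrm2* and *Blm* had none in the table. The E2F motif TTTNNCGC, with each N either C or G and on either strand, was in the promoters of 21 of the 41 (51.2%) and in 2.14% of all 33469 promoters. CCAAT was in 25 (61%, all promoters 37.5%), the Sp1 motif GGGCGG in 28 (68.3%, all promoters 33.1%), and TTTGAA, the cell cycle homology region, in 6 (14.6%, all promoters 18.3%). These are matches of letters and not sites shown to be bound. Among the 21 were *Cdt1*, *Dtl*, *Gins1* and *Pole*, while *Mcm10*, *Pcna*, *Rrm1* and *Tk1* had no match in this window. Shown are the genes whose share of cells with a read differed with intervals apart and that had a promoter (*Mcm3*, *Mcm5*, *Mcm6* and *Gmnn*), beside *Gins2*, the one gene with a lower mean in GNF4877. They were chosen after their values were seen. Capitals mark E2F and CCAAT motifs on either strand. In *Mcm5* and *Mcm6* E2F matches on both strands overlap. The regions are chr9:30733697-30733996 (minus strand), chr19:13488563-13488862 (plus), chr13:42404303-42404602 (minus), chr17:40729584-40729883 (plus) and chr19:65548003-65548302 (minus), each written 5′ to 3′ along its gene. Of these 2 motifs, the first 4 hold both and *Gins2* holds CCAAT alone.
Mcm3: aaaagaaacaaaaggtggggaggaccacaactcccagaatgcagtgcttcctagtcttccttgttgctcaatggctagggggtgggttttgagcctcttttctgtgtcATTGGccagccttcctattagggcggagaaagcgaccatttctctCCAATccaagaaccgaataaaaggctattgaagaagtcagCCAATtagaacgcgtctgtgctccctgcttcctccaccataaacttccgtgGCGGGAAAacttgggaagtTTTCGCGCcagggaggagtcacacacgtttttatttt
Mcm5: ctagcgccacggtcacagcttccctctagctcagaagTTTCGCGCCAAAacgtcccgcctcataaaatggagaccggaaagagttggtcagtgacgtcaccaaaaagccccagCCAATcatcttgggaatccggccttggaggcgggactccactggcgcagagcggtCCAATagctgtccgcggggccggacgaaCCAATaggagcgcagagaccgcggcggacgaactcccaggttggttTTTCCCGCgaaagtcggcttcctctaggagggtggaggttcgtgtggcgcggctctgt
Mcm6: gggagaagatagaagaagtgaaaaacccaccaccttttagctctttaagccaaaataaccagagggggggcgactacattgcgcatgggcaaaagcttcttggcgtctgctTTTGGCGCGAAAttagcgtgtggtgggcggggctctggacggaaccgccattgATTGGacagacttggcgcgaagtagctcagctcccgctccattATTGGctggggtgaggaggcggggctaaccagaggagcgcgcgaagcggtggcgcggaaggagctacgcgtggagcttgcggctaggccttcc
Gmnn: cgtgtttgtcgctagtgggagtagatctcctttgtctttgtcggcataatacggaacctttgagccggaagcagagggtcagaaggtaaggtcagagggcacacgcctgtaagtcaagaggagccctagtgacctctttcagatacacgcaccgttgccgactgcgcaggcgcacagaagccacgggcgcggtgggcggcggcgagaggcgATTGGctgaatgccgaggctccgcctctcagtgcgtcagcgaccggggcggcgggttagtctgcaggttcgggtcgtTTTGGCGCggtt
Gins2: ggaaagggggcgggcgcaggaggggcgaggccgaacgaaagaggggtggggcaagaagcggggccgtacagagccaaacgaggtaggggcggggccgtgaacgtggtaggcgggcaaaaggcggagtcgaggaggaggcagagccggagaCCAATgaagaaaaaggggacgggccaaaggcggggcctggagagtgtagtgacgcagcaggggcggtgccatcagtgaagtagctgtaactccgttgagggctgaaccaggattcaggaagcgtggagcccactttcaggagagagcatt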

How the data were processed

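RNA of single rat islet cells was measured with Fluidigm C1 chips and single 50 bp reads. The authors deposited RPM, reads scaled to 1000000 mapped reads of a cell, for 27586 transcripts in 170 cells. Their processing notes name CASAVA 1.8.2, BWA 0.5.9 and SAMtools 0.1.19. The floor of 0.01 RPM (69.7% of values) was set to 0, and the transcripts of a symbol were added up, after a few symbols with a dot had been restored, which gave 24117 genes. Reads were recovered from the step between the values of a cell, and below 20 reads each value was a whole read to within 0.1 (100% in every cell). A mouse transcriptome is named in the study's methods, but the transcripts listed are RefSeq names of the rat.

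The members and the other lists were chosen with earlier results of these data known. Values are described by the number of cells, the lowest, median and highest value, mean RPM and the log2 ratio of means, each with 1 RPM added. Shares have exact Clopper-Pearson intervals at 95% confidence. No test was run, since each treatment is 1 sample. A group without a read was set against 3 reads over that group. Named in full were members at 2-fold or more in Ins1-high GNF4877 over Ins1-high DMSO cells and those lowest and highest, with the 10 genes most correlated with the member mean and the cycle genes the study names. Other genes named from the lists, and single cells, were chosen after their values were seen.

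Alternatives were other thresholds for *Ins1* and for the per-cell mean, each treatment's own threshold, 18 of the members alone, other pseudocounts (for the per-cell mean, log2 of the pseudocount was subtracted so that no read gives 0), a minimum of 10 RPM, the difference of mean log2(RPM + 1), cells thinned to 100000 reads (which leaves out 2 DMSO and 1 GNF4877 Ins1-high cells), cells with a second hormone left out and each cell left out in turn. Leaving out cells under 100000 listed reads, scaling to listed reads, and leaving out each cell in the comparison by *Ccnb1*, were added after the data were seen. Promoters, gene overlaps and the build GRCr8 are from RefSeq tables, with promoters for 41 of 46 members. The 2-fold call was tried on simulated Poisson counts of genes above a minimum mean RPM in DMSO, and the threshold on simulated normal values. Genes with their signal in few cells were not simulated. Nor were thinning, the recovery of reads, the per-cell mean and the motif search. The work was done in Python 3.11.15 with scipy 1.17.1, matplotlib 3.10.9, pandas 2.3.3 and numpy 2.4.6.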

Additional observations from a re-analysis of the deposited data

How the results depend on the processing

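No paired analysis was possible because numbers only name cells and each treatment is 1 sample. The DMSO share of high cells with *Ccnb1* of 0 (1 of 78) was 0 of 68 cells (up to 5.28%) at *Ins1* of 10000 RPM or more, 0 of 53 (up to 6.72%) with second-hormone cells left out (threshold 2.88) and 0 of 78 (up to 4.62%) above the highest DMSO cell without *Ccnb1*, since cell 21 was then not counted. Above that cell (5.37) the GNF4877 share was 3 of 59 (5.08%) and, with *Ccnb1* of 0, 1 of 59 (1.69%), the threshold being higher by construction. The DMSO median of the per-cell mean was 0.91 over 18 members. With pseudocounts of 0.1 and 10 RPM the medians were 2.50 and 0.60 in GNF4877 and 2.68 and 0.66 in DMSO, a change of scale. With each treatment's own threshold (3.36 in GNF4877), 12 of 59 GNF4877 cells were high (20.3%) and 3 of 59 with *Ccnb1* of 0 (5.08%, against 11.9%), as with 5 times the MAD. The other settings kept these shares within their intervals.

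With 10 RPM added to the means, 22 genes were 2-fold or more higher (all genes 2.62% higher and 3.28% lower) and the median log2 ratio was 0.90. Where log2(RPM + 1) was averaged over cells and subtracted, 8 genes were (all genes 1.35% higher and 18.5% lower), the median was 0.29, and 5 genes changed sign: *Tyms* (-0.12), *Clspn* (-0.038), *Gins3* (-0.31), *Dut* (-0.12) and *Ung* (-0.25). Without 1 cell, 6 genes did: *Pola2* (-0.11), *Clspn* (-0.52), *Pold1* (-0.53), *Ung* (-0.54), *Exo1* (-0.51) and *Gins3* (-0.42). The cause was not tested. With the highest GNF4877 cell of each gene left out, 22 genes were 2-fold or more higher (no share of all genes was taken). Under the other settings 30 to 41 genes were 2-fold or more higher, and none was 2-fold lower under any setting tried. Thinned to 100000 reads, 35 genes were (all genes 9.03% higher and 17.4% lower), with a median of 1.53 (all genes -0.18). Between cells with and without *Ccnb1*, leaving out each cell in turn gave 1 to 4 lower genes in place of 2. A gene with no read may be below the depth of a cell, and PCR copies are counted as reads.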

Other observations

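The 46 genes were also high in cells that were not Ins1-high. By the same threshold 5 of 25 such GNF4877 cells were high (interval 6.83% to 40.7%) and 1 of 8 such DMSO cells (12.5%, 0.316% to 52.7%). Cell 58 had a mean of 4.34, 31 of the 46 genes read, *Ccnb1* of 0 and *Gcg* of 306917 RPM, with *Pcna* at 407 RPM and *Mcm6* at 688 RPM. Cell 42 was at 3.19, also with *Ccnb1* of 0, and had *Gcg* of 43763 RPM. So the pattern of high replication genes without *Ccnb1* was found in cells with glucagon as well. Cells 20, 49 and 15 were at 4.27, 3.35 and 3.61 and had *Ccnb1* reads. The DMSO cell was cell 29, at 3.24, with *Ccnb1* of 0 and *Ppy* of 45020.5 RPM. In the 18 GNF4877 cells with *Gcg* of 1000 RPM or more that were not Ins1-high, the mean of the 46 genes had a median of 0.88 and a highest value of 4.34, and in the 5 such DMSO cells 1.28 and 1.66.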
